A study of Mus musculus with 2 samples.

Results

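The 10 genes described here belong to the integrated stress response and were measured in mouse embryonic stem cells with a knockout of Ago1. They were the kinase genes Eif2ak1, Eif2ak3 and Eif2ak4, the transcription factor genes Atf3, Atf4, Atf5 and Ddit3, and the ATF4 target genes Asns, Trib3 and Ppp1r15a. They were chosen by symbol, and all 10 were found among the 55421 gene IDs of the count table. The symbol Ddit3 stood at 2 IDs. The values given here are those of ENSMUSG00000025408, since the second ID, of 105 bases, had 0 counts in KO2 and 0 in KO1.

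The cells were E14 embryonic stem cells of 129/Ola background with an AGO1 knockout, grown in serum with LIF on gelatin. Polyadenylated RNA was sequenced from 2 samples of this 1 genotype, called KO2 and KO1. No cells with intact Ago1 were analysed here, so nothing below says what the knockout did to these genes. The labels do not say whether the samples were separate clones or cultures, and the spread between them may be technical.

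The integrated stress response lowers general protein synthesis and turns on a repair programme. Kinases that sense haem loss, unfolded proteins, amino acid shortage or viral RNA phosphorylate the translation factor eIF2. Most mRNAs are then translated less, but ATF4 is translated more, because short reading frames ahead of its coding region divert ribosomes when eIF2 is plentiful. ATF4 switches on genes of amino acid supply and, under lasting stress, DDIT3 (CHOP), TRIB3 and the phosphatase subunit PPP1R15A (GADD34), which reverses the phosphorylation. mRNA levels do not show eIF2 phosphorylation or the amount of ATF4 protein.

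The table held 54408708 counts in KO2 and 57048330 in KO1. Ago1 had 452 counts in KO2 and 1497 in KO1, so reads of the targeted gene remained in both libraries, at 3.18 times the scaled level in KO1 (95% interval 2.87 to 3.55). A total per gene cannot show whether they came from the edited stretch. The log2 ratio of Ago1, KO2 over KO1, was -1.67, and -1.73 (95% interval -1.88 to -1.57) after the GC correction described below. Whether the 2 samples carry the same edit was not tested. All 5 embryonic stem cell markers were detected, from Esrrb at 111 RPKM to Pou5f1 at 434 RPKM. Of 7 fibroblast markers 1 was detected, Thy1, with Lum and Postn at 0 counts in both libraries and a summed level of 25.4 CPM in KO2 and 21.2 CPM in KO1. Of 5 endoderm markers 3 were detected, with Afp at 0 counts and a summed level of 28.4 CPM in KO2 and 23.6 CPM in KO1. The part of these cells in the results was not tested, and in bulk samples fewer cells of a type and less RNA per cell cannot be told apart.

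Sequences of 2 kinds were searched for in these genes, upstream reading frames in the leaders and binding elements in the promoters. Eif2ak1 and Eif2ak4 held neither kind. In the annotated coding transcripts, 7 of the 10 genes had at least 1 ATG in the leader, the stretch before the coding start, against 51.9% of 21574 protein-coding genes. In 4 of the 10, an upstream frame ran past the coding start in another reading frame, against 17.0% of those genes. The median leader was 198.5 bases in the 10 genes and 161 bases in those genes. Upstream frames are part of how this pathway works, so the choice of genes favours them and the comparison is a description only. Atf4, the central factor, had a leader of 594 bases with 3 upstream ATGs. Its frames were 36, 3 and 59 codons long, and the last ended 83 bases inside the coding region. Atf5, a relative of Atf4, had no counterpart of the first of these frames. It had a frame of 3 codons followed by one of 58 codons that ended 56 bases inside. Ppp1r15a had 7 upstream ATGs in a leader of 764 bases, of which the last frame, of 50 codons, overlapped the coding start.

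Ddit3 had 2 upstream ATGs in the same frame, the longer one of 34 codons, and neither frame reached the coding start. With its stop codon that frame spans 105 bases, the length of the second ID that carries the symbol. All exons of that ID lie under the main gene on the same strand, and the sources used here do not say how reads shared by 2 genes were treated. Eif2ak3, the kinase gene of the endoplasmic reticulum, had 3 upstream ATGs, 2 of them in frames that crossed the coding start. Atf3 and Asns had 1 upstream ATG each. Trib3, Eif2ak1 and Eif2ak4 had 0.

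**Figure D1:**
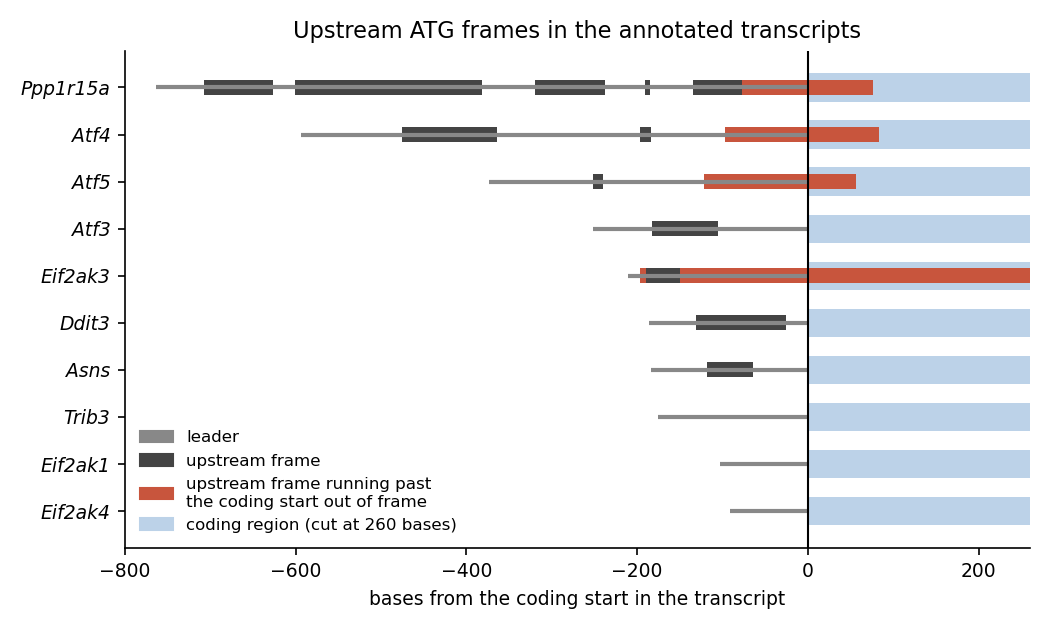
Leaders of the 10 genes in the annotated coding transcripts, drawn to scale, with the coding start at 0 on the horizontal axis in bases. Grey lines are leaders, dark boxes are frames that open at an upstream ATG, red boxes are frames that run past the coding start in another frame, and blue boxes are coding regions; Atf4, Atf5, Ppp1r15a and Eif2ak3 carry a red box.

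ATF4 binds with C/EBP partners to an element known as CARE, searched here as TGATGNAAN on both strands. Endoplasmic reticulum stress can act through ATF4 and also through another element, ERSE. For ERSE the search was for CCAAT and CCACG with any 9 bases between them, on both strands. The windows were RefSeq promoter sequences of 300 bases, 250 of them before the start (GRCm38.p6). All 10 genes had a window, and 3 held a CARE match, Asns, Atf3 and Trib3, against 4.50% of 27025 genes with a window. The 10 genes were chosen for the pathway of ATF4, whose element this is, so the comparison is a description and no test. For Trib3 the match lay after the start, from base 14 to base 22. ERSE was in the windows of 0 of the 10 genes and 0.137% of all genes. The stretches below show the element in a gene at the top of the levels that follow (Asns), in one at the bottom (Atf3), in the amino acid transporter gene Slc7a11, which holds 2 copies, and for contrast the ERSE of the chaperone gene Hspa5. Capitals mark the match, and each line reads 5′ to 3′ on the strand of the gene.
Asns: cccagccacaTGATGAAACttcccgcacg
Atf3: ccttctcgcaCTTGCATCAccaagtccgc
Slc7a11: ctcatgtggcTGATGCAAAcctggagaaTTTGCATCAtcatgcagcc
Hspa5: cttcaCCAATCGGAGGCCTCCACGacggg

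The Asns stretch lies at chr6:7693214-7693242 on the minus strand, 33 to 5 bases before the RefSeq start, and all 29 bases fall in an exon of the GENCODE annotation, which starts the gene further upstream. The Atf3 stretch lies at chr1:191183426-191183454 on the minus strand, 121 to 93 bases before the start. That of Slc7a11 lies at chr3:50443643-50443689 on the minus strand, and that of Hspa5 at chr2:34772020-34772048 on the plus strand, with all 29 bases in an annotated exon. A match describes the sequence and does not show that a factor is bound there.

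Levels between genes were compared as RPKM, reads per kb of merged exons per 1000000 reads after TMM scaling. Detection required at least 1 CPM (reads per 1000000) in each library, which all 10 genes passed, against 55.3% of protein-coding genes. Among the sensors, Eif2ak1 encodes HRI, the kinase of haem and mitochondrial stress. It had 4539 counts in KO2 and 4960 in KO1, which gave 14.7 RPKM in KO2 and 15.4 RPKM in KO1. Its mean of 15.0 ± 0.527 RPKM (SD, n = 2) lay above 73.8% of the 13347 detected genes. Eif2ak1 lies at chr5:143817788-143904251, and 11.6% of its exons lie under genes on the opposite strand, whose reads are kept apart only if the counting used strand.

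Eif2ak3 encodes PERK, which senses unfolded proteins in the endoplasmic reticulum. It had 2188 counts in KO2 and 2359 in KO1, or 6.65 RPKM in KO2 and 6.89 RPKM in KO1. Of its exons, 8.05% lie under Gm43292 on the opposite strand. Eif2ak4 encodes GCN2, which senses uncharged tRNA. It had 1984 counts in KO2 and 2030 in KO1, or 4.87 RPKM in KO2 and 4.79 RPKM in KO1, just under the median of 5.47 RPKM of all detected genes. The libraries lay close together for all 3 kinase genes.

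The fourth kinase gene of the pathway, Eif2ak2, encodes PKR, which senses double-stranded RNA, and stood at 7.08 RPKM in KO2 and 9.30 RPKM in KO1. Of the summed RPKM of the 4 kinase genes, Eif2ak1 made up 43.2% ± 1.23 (SD, n = 2), Eif2ak2 23.4% ± 3.01, Eif2ak3 19.5% ± 0.739 and Eif2ak4 13.9% ± 1.04. Eif2ak1 was thus the most abundant kinase mRNA per length, at 2.22 ± 0.0211 times Eif2ak3 and 3.11 ± 0.145 times Eif2ak4. The values of Eif2ak2 and Eif2ak3 did not overlap between the libraries, and PERK mRNA was the lower in both per kb of merged exons. In CPM, with no length scaling, Eif2ak3 was at 40.05 and Eif2ak2 at 36.2 in KO2, and Eif2ak3 at 41.5 and Eif2ak2 at 47.5 in KO1, so this order depends on the length scaling.

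Atf4 was by far the most abundant of the transcription factor genes. It had 23290 counts in KO2 and 22077 in KO1, or 181 RPKM in KO2 and 165 RPKM in KO1. Its mean of 173 ± 11.3 RPKM (SD, n = 2) lay above 98.4% of detected genes. Atf4 made up 92.2% ± 1.22 of the summed RPKM of Atf3, Atf4, Atf5 and Ddit3. The gene is compact, at chr15:80255184-80257541, and no other annotated gene lies over its exons.

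Atf5, linked to the mitochondrial stress response, had 1313 counts in KO2 and 948 in KO1, or 12.1 RPKM in KO2 and 8.37 RPKM in KO1. Of the exons of Atf5, 4.11% lie under Il4i1 and Nup62 on the opposite strand. Ddit3, encoding the death-associated factor CHOP, had 310 counts in KO2 and 184 in KO1, or 3.31 RPKM in KO2 and 1.89 RPKM in KO1. Of the exons of Ddit3, 4.73% lie under Mars and Gm4189 on the opposite strand, and Mars stood at 70.7 RPKM. Reads of Mars are kept apart from Ddit3 only if the counting used strand, so the level and ratio of Ddit3 carry this limit. Atf3, a stress-induced repressor, had 219 counts in KO2 and 256 in KO1, or 1.86 RPKM in KO2 and 2.09 RPKM in KO1. Ddit3 lay above 32.2% and Atf3 above 26.6% of detected genes. The mRNA of both late stress factors was present at low levels beside that of Atf4, with a ratio of Ddit3 to Atf4 RPKM of 0.0149 ± 0.00484. The level of Ddit3 depends on the length used, since its merged exons span 1713 bases and its coding transcript 890 bases, which gives 5.01 RPKM in place of 2.60 RPKM.

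Asns, the ATF4 target that makes asparagine from aspartate, had the highest level of the 10 genes. It had 33954 counts in KO2 and 39688 in KO1, or 227 RPKM in KO2 and 255 RPKM in KO1. Its mean of 241 ± 19.9 RPKM (SD, n = 2) lay above 98.9% of detected genes. In CPM, which does not account for length, it stood at 621 in KO2 and 699 in KO1. Asns lies at chr6:7675169-7693254 on the minus strand, with no other gene over its exons.

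Trib3, a pseudokinase that dampens ATF4 and CHOP, had 2480 counts in KO2 and 1577 in KO1, or 21.4 RPKM in KO2 and 13.1 RPKM in KO1. Its relatives Trib1 and Trib2 were lower per length, and Trib3 stood at 3.19 times Trib1 in KO2 and 2.29 times in KO1, and at 39.5 times Trib2 in KO2 and 25.5 times in KO1. In CPM, Trib3 was at 45.4 and Trib1 at 41.8 in KO2. In KO1 they were at 27.8 and 35.7, so there the order of Trib3 and Trib1 depends on the length scaling. Ppp1r15a, the stress-induced subunit that steers a phosphatase to eIF2, had 2333 counts in KO2 and 1869 in KO1, or 14.5 RPKM in KO2 and 11.2 RPKM in KO1. It stood below its constitutive relative Ppp1r15b, at 0.699 times that gene in KO2 and 0.480 times in KO1. Asns exceeded the other targets in both libraries, at 10.6 times Trib3 in KO2 and 19.6 times in KO1.

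Ranked by mean RPKM, the order was Asns, Atf4, Trib3, Eif2ak1, Ppp1r15a, Atf5, Eif2ak3, Eif2ak4, Ddit3 and Atf3. Of the 9 neighbouring pairs, 6 had library values that did not overlap. The values overlapped for Trib3 and Eif2ak1, for Ppp1r15a and Atf5, and for Ddit3 and Atf3. In KO1 the order within the first and last of these pairs was turned round. On coding transcript lengths Ddit3 lay above Atf3 in both libraries, at 6.38 against 2.02 RPKM in KO2 and 3.64 against 2.27 RPKM in KO1, and the mean of Eif2ak1 lay above that of Trib3. The widest gap lay between Atf4 and Trib3, at 8.46-fold in KO2 and 12.6-fold in KO1. Of the 3 genes with a CARE match, Asns ranked 1, Trib3 3 and Atf3 10 of the 10.

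**Figure D2:**
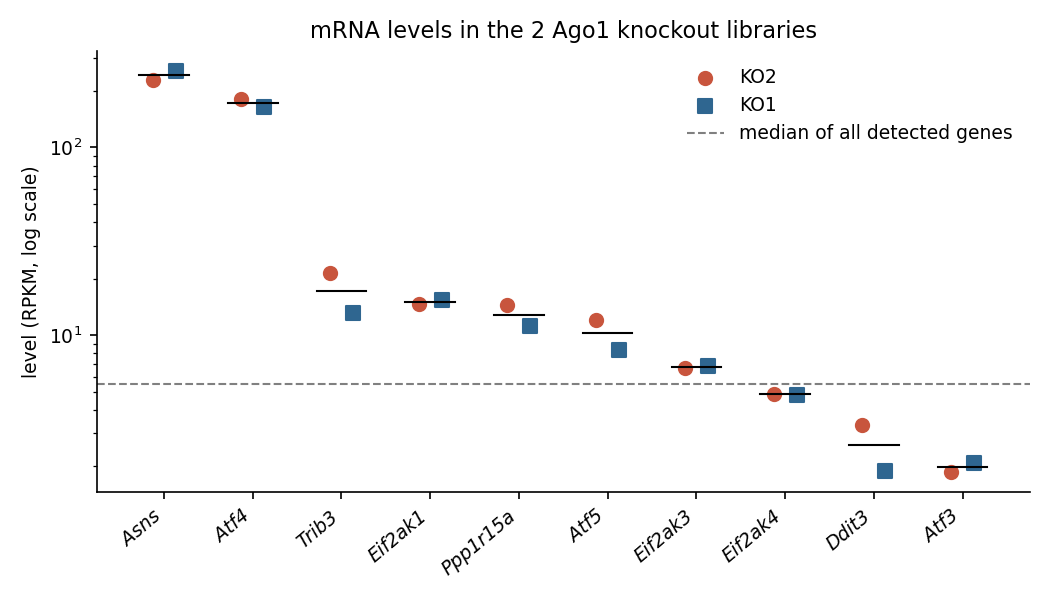
Level of each gene on a log axis (RPKM) in KO2 (circles) and KO1 (squares), with the mean over both as a black line and the median of all detected genes, 5.47 RPKM, dashed. Asns and Atf4 sit above 160 RPKM in both libraries, 6 genes lie near or above the dashed line, and Ddit3 and Atf3 lie below it.

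For each gene the scaled counts of the 2 libraries were set against each other, KO2 over KO1, with a 95% exact conditional binomial interval that covers counting error only. This compares 2 libraries of 1 genotype and has no replicate check, so no p-value is given. By a rule that the whole interval lie beyond 2-fold at a summed count of at least 50, 0 of the 10 genes differed, against 1.06% of 15619 genes. Beyond 1.5-fold, 1 gene differed, Trib3, against 6.6% of genes.

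Trib3 was 1.64-fold higher in KO2 (95% interval 1.53 to 1.74). Ddit3 had the largest ratio, 1.75-fold (1.46 to 2.11), and rests on 494 counts in all. Atf5 was at 1.44-fold (1.32 to 1.57), Ppp1r15a at 1.30-fold (1.22 to 1.38) and Atf4 at 1.10-fold (1.08 to 1.12). Asns ran the other way, at 0.890-fold (0.877 to 0.903), as did Eif2ak1 at 0.952-fold (0.914 to 0.991). For Eif2ak3, Eif2ak4 and Atf3 the interval included equality. In all, the interval lay above equality for 5 of the 10 genes and below it for 2, against 34.3% and 31.2% of all genes. The interval is narrower for genes with more counts, and these shares are not matched for depth. The median log2 ratio was 0.08 for the 10 genes and 0.01 for all genes past the same minimum.

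**Figure D3:**
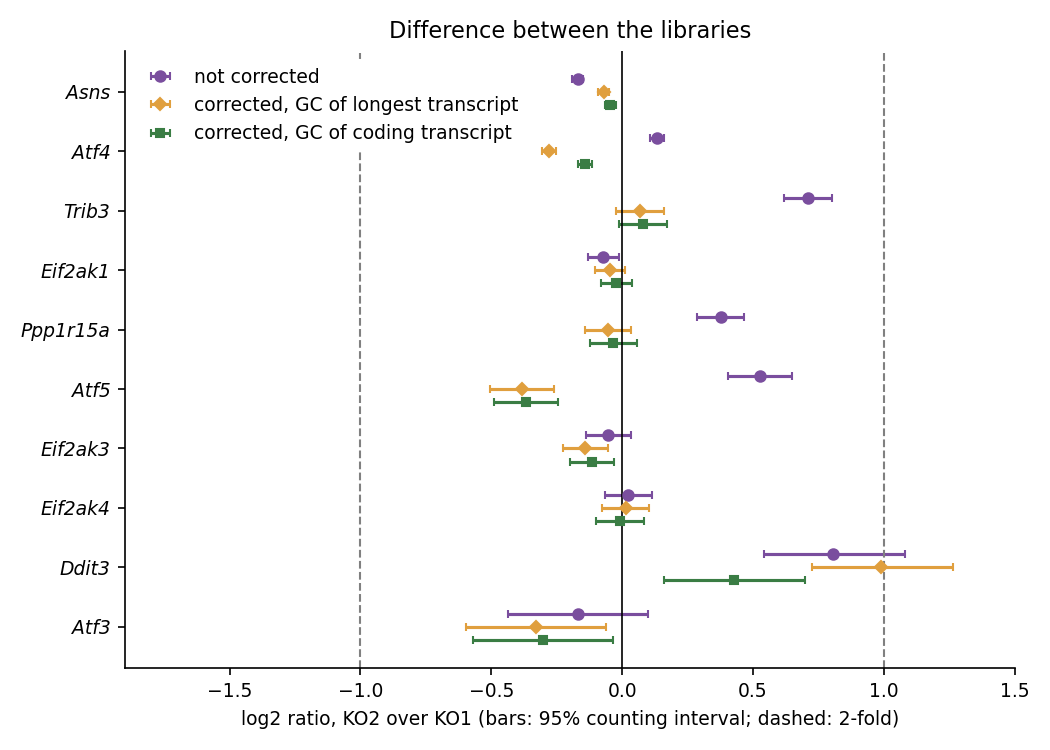
Log2 ratio of KO2 over KO1 for each gene with its 95% counting interval, not corrected (circles), corrected for the GC content of the longest transcript (diamonds) and for that of the coding transcript (squares), with 2-fold marked by dashed lines. No interval lies wholly beyond 2-fold, Trib3 and Ppp1r15a move to near 0 with either correction, and Atf4 and Atf5 change side.

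The library difference followed GC content across the transcriptome, with a Spearman's rho of 0.811 across 15603 genes, a description only, since genes of the same libraries are no independent replicates. Of the 5 genes higher in KO2, 4 had GC-rich longest transcripts, of 61.7% GC for Atf5, 58.2% for Trib3, 55.7% for Ppp1r15a and 55.5% for Atf4, against a median of 49.6% over all genes. The fifth, Ddit3, had 45.6%, and rho over the 10 genes alone was 0.358. Asns, lower in KO2, had 47.7%. After subtraction of the trend, Trib3 stood at a log2 ratio of 0.07 (95% interval -0.02 to 0.16) and Ppp1r15a at -0.05 (-0.14 to 0.03). Atf5 turned to -0.38 (-0.51 to -0.26) and Atf4 to -0.28 (-0.31 to -0.25), so the direction of both depends on this correction. Again 0 of 10 genes passed the 2-fold rule, against 0.269% of genes. The interval lay above equality for 1 gene, Ddit3, and below it for 5, Atf3, Atf4, Atf5, Eif2ak3 and Asns, against 19.8% and 20.5% of genes. Asns was among the 5 at a corrected log2 ratio of -0.07 with 73642 counts, and Atf3 at -0.33 with 475 counts. The shares of all genes, here and below, are not matched for depth.

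Ddit3 did not follow the trend in this form. Its corrected log2 ratio was 0.99 (0.72 to 1.26), above 99.6% of the genes tested. The longest annotated Ddit3 transcript, of 969 bases and 45.6% GC, is not the coding transcript, which has 890 bases and 55.4% GC. With the GC content of coding transcripts, an alternative added after these values were seen, Ddit3 stood at 0.43 (0.16 to 0.70), above 96.6% of genes. Its distance from the trend thus depended on which transcript the GC content was read from. With that version Atf4 was at -0.14 (-0.17 to -0.11), Atf5 at -0.37 (-0.49 to -0.25) and Trib3 at 0.08 (-0.01 to 0.17). The interval then lay above equality for 1 of the 10 genes, Ddit3, and below it for 5, against 20.3% and 20.8% of genes, and 0 of 10 passed the 2-fold rule, against 0.217%.

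**Figure D4:**
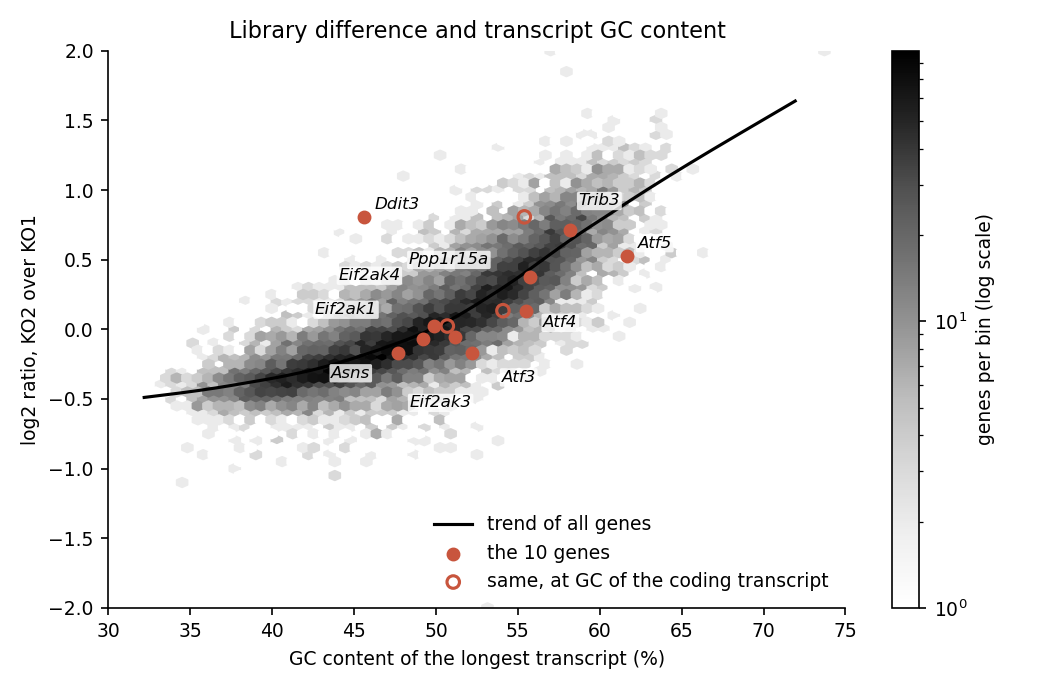
Log2 ratio of KO2 over KO1 against the GC content of the longest transcript for all genes with at least 50 counts (grey bins, log colour scale, values beyond the axis drawn at its edge), with the trend in black and the 10 genes as red points. Open circles repeat Ddit3, Atf4 and Eif2ak4 at the GC content of the coding transcript, 55.4% in place of 45.6% for Ddit3, which brings it nearer to the trend.

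Around these genes, 108 other genes of the pathway in 10 lists were read in the same way. Of them 103 were detected. The 2-fold rule between the libraries could be applied to 106, all but Batf3 and Fgf21, which had 12 and 22 counts in all, and 0 passed it, against 1.06% of all genes. The median level of detected genes was 25.1 RPKM, beside 11.5 RPKM for the 10 genes. From each list the highest and lowest members are named.

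Of the sensors and activators 9 of 9 were detected, from Hspa5, the chaperone that holds PERK inactive, at 139 ± 13.9 RPKM (SD, n = 2) and Impact, an inhibitor of GCN2 activation, at 22.8 ± 3.73 RPKM to Dele1, which relays mitochondrial stress to HRI, at 5.20 ± 1.01 RPKM and Ern1, the IRE1 sensor, at 1.35 ± 0.00784 RPKM. All 9 subunit genes of eIF2, the target of the kinases, and of its exchange factor eIF2B were detected. Eif2s2 and Eif2s1, the beta and alpha subunits, led at 154 ± 25.5 and 84.5 ± 14.5 RPKM, and the Y-linked Eif2s3y at 16.6 ± 0.991 RPKM and Eif2b3 at 12.02 ± 1.15 RPKM were lowest. All 6 genes listed as phosphatase partners were detected. The list also holds Dnajc3, a cochaperone and inhibitor of the eIF2 kinases that is no phosphatase partner. Levels ran from the catalytic subunit genes Ppp1ca and Ppp1cc at 119 ± 15.4 and 62.1 ± 3.14 RPKM to Dnajc3 and Nck1 at 6.85 ± 1.15 and 6.44 ± 0.982 RPKM.

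Of 15 genes for bZIP partners and other Atf factors 11 were detected. Atf1 and Nfe2l1 led at 62.5 ± 3.56 and 31.7 ± 4.71 RPKM, so no listed relative reached the level of Atf4. Cebpd and Batf3 were lowest, at 0.195 ± 0.0494 and 0.0677 ± 0.0178 RPKM. The amino acid enzyme genes, many of them ATF4 targets, were detected in 11 of 11 cases, with Psat1 and Shmt2 of serine and glycine synthesis at 151 ± 0.376 and 87.8 ± 34.6 RPKM and Pycr1 and Cbs at 6.81 ± 0.552 and 4.22 ± 1.15 RPKM. Of the transporters 9 of 9 were detected, led by Slc7a3 and Slc3a2 at 88.9 ± 0.402 and 84.8 ± 14.3 RPKM. Slc6a9 was at 1.91 ± 0.709 RPKM, and Slc7a11, the cystine carrier whose 2 CARE matches are shown above, at 0.105 ± 0.00530 RPKM.

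All 13 cytosolic tRNA synthetase genes were detected, from Gars and Nars at 191 ± 9.46 and 166 ± 5.20 RPKM to Vars and Cars at 38.1 ± 14.7 and 35.4 ± 2.49 RPKM. Of 18 stress and death effectors 17 were detected. Eif4ebp1, a brake on cap-dependent translation, led at 117 ± 35.6 RPKM, followed by the metabolic stress gene Sesn2 at 44.5 ± 13.9 RPKM. Trib2 at 0.526 ± 0.0204 RPKM and the hormone gene Fgf21 at 0.209 ± 0.113 RPKM were lowest, and Fgf21 had 15 counts in KO2 and 7 in KO1. The list of endoplasmic reticulum chaperones, which also holds the transcription factor gene Xbp1 and the degradation factor gene Edem1, was detected in 12 of 12 cases. The mitochondrial stress list, which holds chaperones and the protease genes Lonp1 and Clpp, was detected in 6 of 6. Hsp90b1 and Calr were at 235 ± 41.9 and 191 ± 3.80 RPKM and Dnajb9 and Edem1 at 10.6 ± 2.05 and 7.84 ± 0.985 RPKM. Hspd1 and Hspa9 were at 773 ± 89.2 and 362 ± 40.5 RPKM, and Lonp1 and Dnaja3 at 39.6 ± 8.59 and 27.2 ± 1.12 RPKM.

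**Figure D5:**
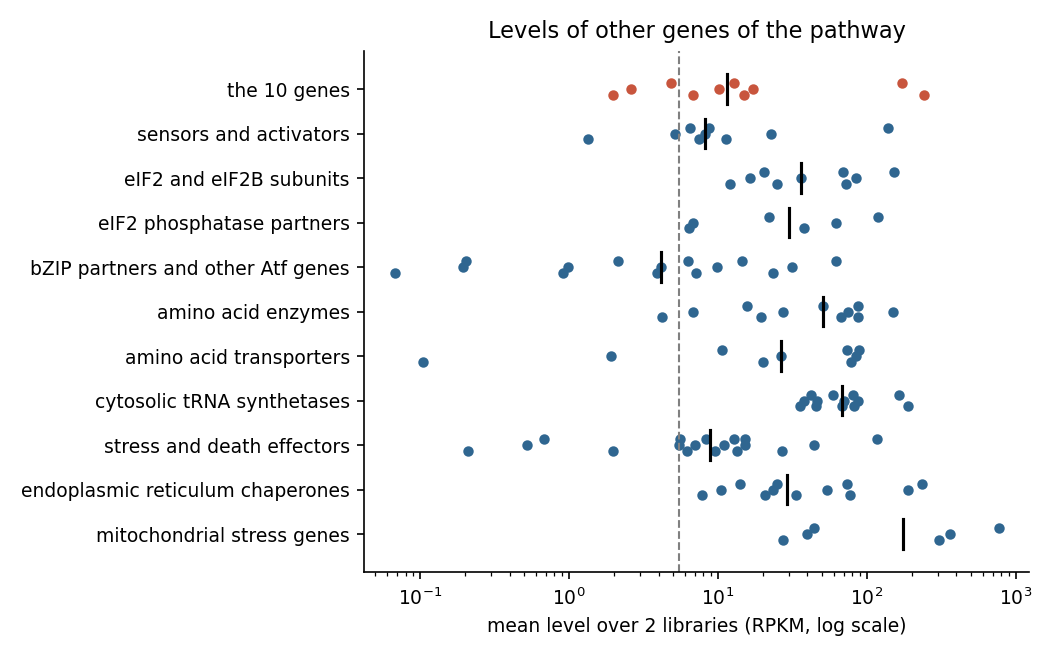
Mean RPKM over both libraries on a log axis for the 10 genes (red) and each listed gene of the pathway (blue), one row per list, with black bars at list medians and the median of all detected genes dashed. The cytosolic tRNA synthetase genes lie between 35.4 and 191 RPKM, while the bZIP and effector lists spread from below 1 RPKM to above 60 RPKM.

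Promoter windows were given for 85 of the 108 genes, of which 16 held a CARE match, 18.8%, against 4.50% of all genes with a window. They included 5 of 8 tRNA synthetase genes, 5 of 14 stress and death effectors and 2 of 6 transporters. The lists were drawn up around a pathway that acts through ATF4. The choice of genes thus favours CARE, and these shares are a description only. Of 10 endoplasmic reticulum chaperone genes 0 held CARE and 4 held ERSE. ERSE is an element of endoplasmic reticulum stress, so its presence in this list also follows the choice of genes. The 16 genes with CARE ran from Slc7a11 at 0.105 RPKM to Gars at 191 RPKM with a median of 15.3 RPKM, and the 69 without it had a median of 23.4 RPKM.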

How the data were processed

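The values are raw counts of reads per Ensembl gene, in a single table as the authors deposited it. The submitters' processing notes name GRCm38. The sources used here name no aligner, counting program or annotation release, and give no strand setting for the counting, although the labels call the protocol reverse-stranded. Of 55421 IDs, 55240 were matched to GENCODE release M21, which gave symbols, positions, merged exon lengths and transcript GC content. A count of 0 allows up to 3 counts, which is 0.0549 CPM in KO2 and 0.0528 CPM in KO1. Intervals and floors cover counting error only.

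Counts were scaled with edgeR 4.0.16 (TMM) in R 4.3.3. Log2 ratios had a prior count of 0.5. The GC trend was a loess fit with a span of 0.3, over genes with 50 or more counts in all. Leaders were read from the principal (APPRIS) coding transcript and the longest where several were tied. Other steps used scipy 1.17.1 under python 3.11.15. The ratio rule and the GC correction were tested on simulated data, but no outcome is given here, so this lends the results no support.

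With 1 group, no test between groups and no quasi-likelihood fit could be made. The genes and lists were chosen with earlier results of these data known. The naming rule took the 10 genes, Ago1, and the 2 highest and 2 lowest genes of each list by mean RPKM; Eif2ak2, Ppp1r15b and Trib1 are named outside it as relatives, and markers as checks. Alternatives covered scaling (library size, DESeq2 1.42.0), length, filters, thresholds, GC correction and each library alone.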

Additional observations from a re-analysis of the deposited data

How the results depend on the processing

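No paired analysis was possible because both samples belong to 1 group. From single libraries, the median level of the 10 genes ran from 9.79 to 13.3 RPKM, the share of Eif2ak4 from 13.2% to 14.6%, that of Atf4 from 91.3% to 93.0% and the detected pathway genes from 103 to 104. Each library lies within 1 SD of the mean of 2 by construction. The number of detected genes stayed at 10 of 10 under library size, DESeq2 scaling, leaving out mitochondrial genes and a CPM of at least 0.5, and was 8 of 10 at a CPM of at least 5. The DESeq2 size factor was 1 in both libraries, so that alternative applied no scaling between them. The share of Eif2ak4 among the kinase genes, 13.9%, was 15.1% with coding transcript lengths and 17.7% with no length scaling. Coding transcript lengths raised Ddit3 to 5.01 RPKM, against 2.60 RPKM, and put Eif2ak1 at 19.7 RPKM above Trib3 at 18.1 RPKM. The count of genes beyond the fold threshold between libraries was 1 of the 10 at 1.5-fold, against 0. Over all genes, 165 of 15619 differed, 42 of 15603 when corrected for GC content and 29 of 13392 when corrected on coding transcripts, which hardly any but protein-coding genes have. On protein-coding genes 140 differed, and the first correction left 18 higher and 9 lower, so the smaller gene set alone brings 42 close to 29. A threshold of 1.5-fold gave 1031 genes and one of 3-fold gave 24, by construction. The median log2 ratio of the 10 genes, 0.08, became -0.062 with the first correction and -0.039 with the second. Atf4 reversed to -0.28 and -0.14, and Atf5 to -0.38 and -0.37. Ppp1r15a moved to -0.054 and -0.034, with intervals that included equality in both versions. The cause of the GC trend was not tested. Depth limits Ddit3 and Atf3, with 494 and 475 counts in all.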

Other observations

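Eif4ebp1 was the gene furthest from the GC trend among the 106 tested genes of the pathway lists. It had 17112 counts in KO2 and 11507 in KO1, a log2 ratio of 0.63 (95% interval 0.59 to 0.66), at a GC content of 48.2%. With the GC correction the ratio was 0.71 (0.67 to 0.74), and 0.73 (0.70 to 0.76) with that on coding transcripts, so it was higher in KO2 either way and below the 2-fold threshold.

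Of the 10 lists, picked here after their values were seen, the amino acid enzyme genes were mostly higher in KO2. Their interval lay above equality for 9 of 11 genes without correction, for 8 of 11 with the GC correction and for 9 of 11 with that on coding transcripts, against 34.3%, 19.8% and 20.3% of all genes. The sizes were small, with a median log2 ratio of 0.18 without correction, 0.08 with the first and 0.09 with the second. Among all 106 tested genes of the lists, the interval lay above equality for 54, 35 and 36 genes, in the same order. The interval is narrower for genes with more counts, and these shares are not matched for depth. The 11 enzyme genes each had from 2981 to 71717 counts over both libraries, against a minimum of 50 for all genes. The genes listed as eIF2 phosphatase partners ran the other way, with the interval below equality for 5 of 6 without correction, for 4 of 6 with the GC correction and for 3 of 6 with that on coding transcripts, against 31.2%, 20.5% and 20.8% of all genes. Over the 106 tested genes of the lists it was 32.1%, 27.4% and 25 of 106.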
